A study of Mus musculus with 6 samples.

Results

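The replication-independent histone variants are histones that a cell can make at any stage of the cell cycle, unlike the bulk histones, whose genes are transcribed mainly in S phase. The genes examined were 10 chosen by name, H3f3a, H3f3b, H2az1, H2az2, H2ax, H2aj, Macroh2a1, Macroh2a2, H1f0 and H1f10, and each was found as 1 row among the 40413 gene rows of the deposited table. They were followed in N2A-A5 cells, a line derived from the mouse neuroblastoma line Neuro-2a and called acceptor cells in the labels, which do not say whether A5 is a clone. There were 3 libraries of cells that had been kept for 96 h in medium with 10 µM retinoic acid and 1% fetal bovine serum, without blasticidin, and 3 libraries of undifferentiated cells (0 h) grown with 10% serum and with 10 µg/mL blasticidin. Retinoic acid, serum, blasticidin and time in culture changed together between the groups and cannot be told apart. The design text describes the replicates as biological.

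A nucleosome is built from histones H2A, H2B, H3 and H4, and a linker histone H1 binds where the DNA enters and leaves it. In dividing cells the bulk of these proteins comes from clustered, intronless genes whose mRNAs end in a stem-loop. Variant genes lie mostly alone in the genome, make mostly polyadenylated mRNAs and serve to replace histones between rounds of replication, which makes them the main source of new histone in cells that have left the cycle, neurons among them. Dedicated chaperones place them: HIRA and DAXX-ATRX for H3.3, the SRCAP and p400 complexes for H2A.Z.

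Of the 10 genes, 8 fell at 96 h, none rose and 2 gave no call. The falls ran from a log2 fold change of -0.20 for H2az1 to -1.99 for H1f0, and the median over the 9 genes tested was -0.86, against 0.03 over all 13705 genes tested. H2aj did not pass the test, and Macroh2a2 was at or near 0 counts in every library and was removed by the filter on low counts. The test was edgeR's quasi-likelihood F test on all genes, with a call at a Benjamini-Hochberg adjusted p under 0.05. None of the 9 tested was higher at an unadjusted p under 0.05 either, nor with DESeq2 or limma-voom (0 each), and the same holds for each of the lists below of which it is said that none rose. By the adjusted rule 28.8% of all genes tested were lower at 96 h and 28.7% were higher. For the same 8 genes the 96 h libraries lay wholly below the 0 h libraries, as was the case for 31.7% of all genes tested (32.4% lay wholly above). H1f0, H2ax and H3f3b fell by more than 2-fold, as 3.77% of genes did. Levels are given as CPM, counts divided by the size of their library in units of 1000000 counts, with library sizes scaled by TMM, a method that centres the bulk of genes between libraries. Scaling by library size only moved the median of all genes to -0.22 and the share of calls that were higher to 29.2%, against 49.9% with TMM, so every direction here is relative to the TMM scale. In bulk RNA, fewer cells that make a transcript and less of it per cell cannot be told apart.

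**Figure D1:**
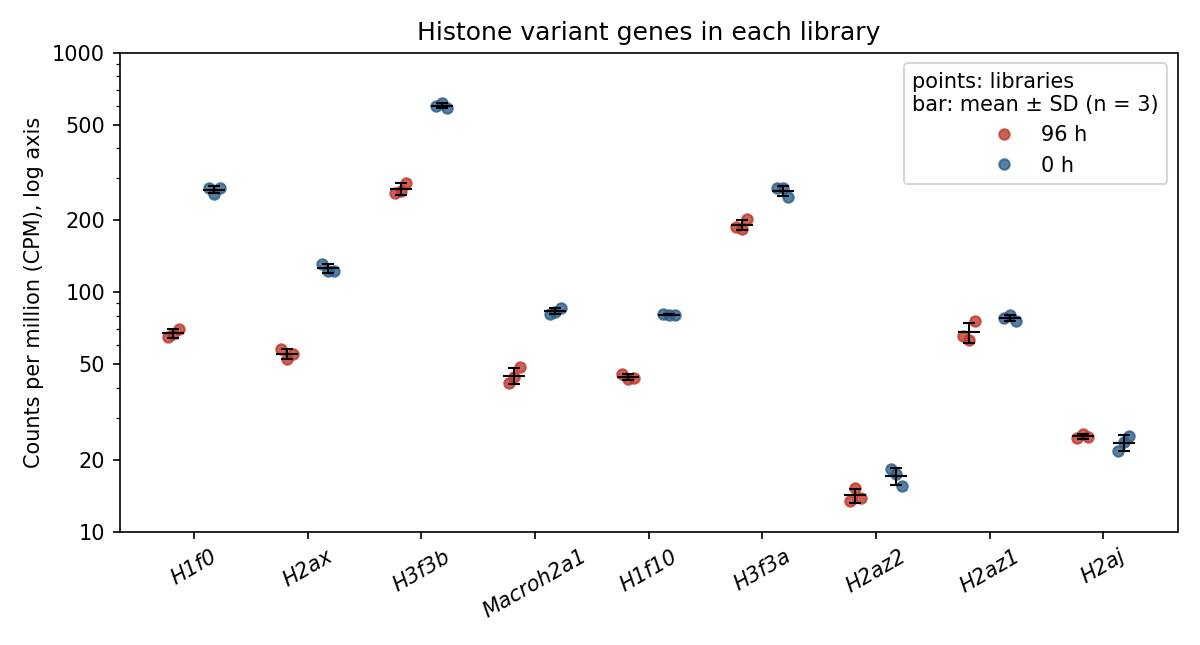
CPM (log axis) of the 9 tested histone variant genes in each library, 96 h in red and 0 h in blue, with the mean and SD of 3 libraries, ordered by fold change. The groups overlap for H2aj alone among these genes, and lie farthest apart for H1f0 (67.4 CPM at 96 h and 268 CPM at 0 h).

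Libraries held 16833692 to 19000363 counts at 96 h and 17628885 to 20932370 at 0 h. The predicted gene Gm26917 made up 30.5% of the counts in the mean of the 96 h libraries and 20.2% in that of the 0 h libraries. Together with other structural RNA and all mitochondrially encoded genes, mRNAs included, it made up 45.5% at 96 h and 30.9% at 0 h. Without all of these the same number of variant genes, 8, was lower and 0 higher. Of the markers of sympathetic neuroblastoma cells, Prph averaged 1043 ± 47.3 CPM at 96 h and 567 ± 17.4 CPM at 0 h, and Stmn2 109 ± 6.92 CPM at 96 h and 91.4 ± 3.86 CPM at 0 h (SD, n = 3 each). Tubb3 averaged 259 ± 4.32 CPM at 96 h and 383 ± 2.65 CPM at 0 h, and Phox2a 56.1 ± 3.86 CPM at 96 h and 77.6 ± 2.40 CPM at 0 h. The summed level of 8 markers of blood, vessel, connective tissue and glial cells was 13.4 to 18.7 CPM at 96 h and 10.2 to 12.3 CPM at 0 h. Of these, Aif1 was at 0 in all libraries, Ptprc summed to 3 counts over the 96 h libraries and to 0 over the 0 h libraries, and Pdgfra was higher at 96 h (7.96 CPM against 2.58 CPM at 0 h). The part of these changes in the results was not tested.

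The H3.3 protein is encoded by H3f3a and H3f3b, which have different promoters and untranslated regions and the same protein product. H3.3 replaces H3 at active genes and regulatory elements, and at telomeres. H3f3b had 259, 265 and 287 CPM at 96 h, against 602, 618 and 587 CPM at 0 h (replicates 1, 2 and 3, as in all such lists). All 96 h libraries were below all 0 h libraries, and the level at 96 h was 44.9% of that at 0 h (log2 fold change -1.16 ± 0.05, SE, edgeR adjusted p = 2.84e-10). H3f3a had 187, 185 and 202 CPM at 96 h, against 272, 272 and 250 CPM at 0 h. The groups again did not overlap, and the level at 96 h was 72.2% of that at 0 h (-0.47 ± 0.05, adjusted p = 3.44e-06). Together the genes gave 461 ± 24 CPM at 96 h and 867 ± 27 CPM at 0 h (SD, n = 3 each).

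The fold change was larger for H3f3b than for H3f3a, so that H3f3a made up more of the pair at 96 h. H3f3a supplied 41.9%, 41.1% and 41.3% of the counts of the pair at 96 h, against 31.1%, 30.6% and 29.8% at 0 h. The log2 ratio of H3f3a over H3f3b was -0.50 ± 0.03 at 96 h and -1.19 ± 0.04 at 0 h (SD, n = 3 each), a difference of 0.69. The ratio did not overlap between the groups, with an exact two-sided permutation p of 0.1, the smallest that 3 libraries against 3 allow, and 0.15 after adjustment over the 3 ratios compared. Such a ratio is taken within a library and does not depend on the scaling between libraries. The coding sequences of the pair are similar and have processed copies elsewhere in the genome, so estimated counts may be split among them. A further row named H3f3c held 15, 22 and 36 counts at 96 h and 38, 58 and 47 at 0 h. H3f3a alone held 2804 to 3624 counts at 96 h and 4780 to 6394 at 0 h. Rows of other copies of the pair were not searched for, so the extent of such splitting is not known.

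**Figure D2:**
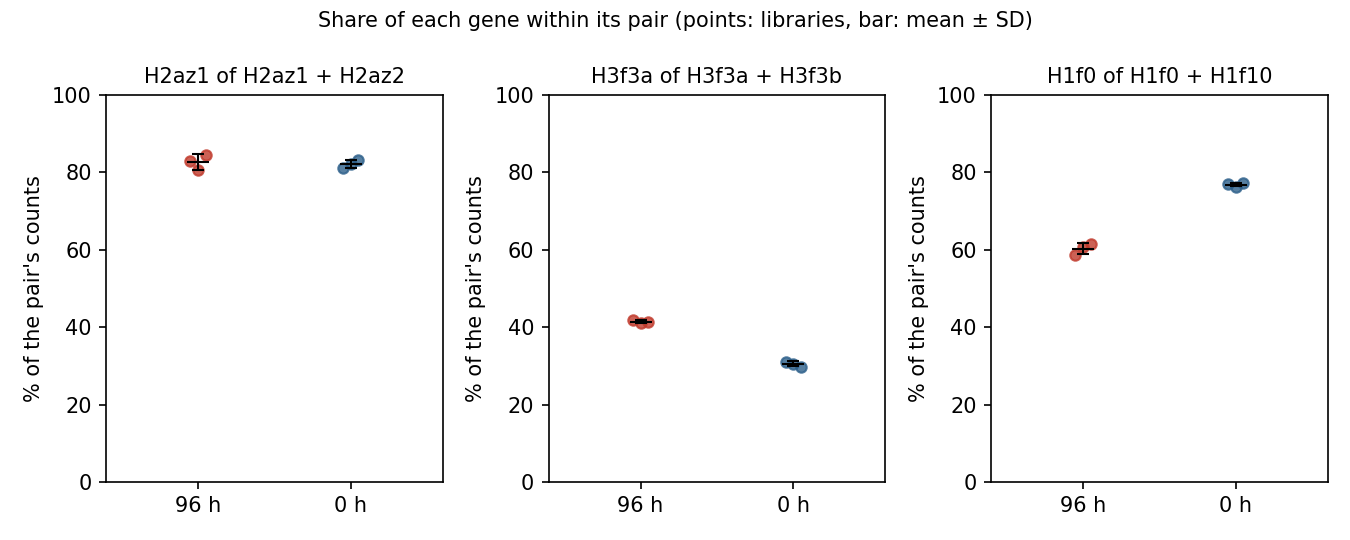
Share of counts taken by the first gene of each pair, in percent, for each library (96 h in red, 0 h in blue, mean and SD of 3 libraries). H3f3a took 41.4% of its pair at 96 h and 30.5% at 0 h, H1f0 took 60.3% of its pair at 96 h and 76.9% at 0 h, and H2az1 took 82.7% at 96 h and 82.1% at 0 h.

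The 250 bases before the start of 4 of these genes are shown because H3f3a and H3f3b make the same protein but fell by unequal amounts, and because H1f0 and H2az1 had the largest and the smallest fall among the genes called. The sequences are from RefSeq (build GRCm38.p6, an earlier build than the mm39 named for the counts), and 9 of the 10 genes matched. Capitals mark any of 8 sequence motifs on either strand, where matches may overlap: CCAAT (the CCAAT box), TATAAA (the TATA box), GGGCGG (a GC box bound by Sp1), ATGCAAAT (the octamer bound by POU factors), AAACACA (a motif of linker histone promoters), CACGTG (an E-box), TGACG (the core of a cyclic AMP response element) and TTTGGCG (an E2F-type motif).
H3f3a (chr1:180813606-180813855, minus strand): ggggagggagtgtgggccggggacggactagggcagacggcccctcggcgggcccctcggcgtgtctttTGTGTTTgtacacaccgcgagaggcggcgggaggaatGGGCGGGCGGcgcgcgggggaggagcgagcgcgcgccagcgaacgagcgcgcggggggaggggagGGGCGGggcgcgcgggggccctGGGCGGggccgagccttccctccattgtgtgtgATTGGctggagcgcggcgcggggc
H3f3b (chr11:116024505-116024754, minus strand): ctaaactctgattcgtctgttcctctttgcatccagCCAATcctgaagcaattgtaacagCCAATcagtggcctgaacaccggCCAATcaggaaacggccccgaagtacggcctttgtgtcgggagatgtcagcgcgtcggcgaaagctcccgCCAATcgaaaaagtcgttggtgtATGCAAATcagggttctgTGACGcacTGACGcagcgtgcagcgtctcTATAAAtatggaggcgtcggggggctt
H1f0 (chr15:79027962-79028211, plus strand): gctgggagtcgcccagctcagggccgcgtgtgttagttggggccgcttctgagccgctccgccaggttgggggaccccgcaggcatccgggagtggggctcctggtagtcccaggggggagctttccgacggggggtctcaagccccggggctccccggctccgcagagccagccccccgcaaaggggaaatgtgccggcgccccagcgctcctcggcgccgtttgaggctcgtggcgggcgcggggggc
H2az1 (chr3:137864237-137864486, plus strand): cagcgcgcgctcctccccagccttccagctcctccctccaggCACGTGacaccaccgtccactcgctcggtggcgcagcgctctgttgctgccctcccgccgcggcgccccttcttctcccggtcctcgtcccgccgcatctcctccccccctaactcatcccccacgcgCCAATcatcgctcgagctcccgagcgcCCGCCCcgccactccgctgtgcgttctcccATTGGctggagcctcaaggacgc

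The H3f3b window held 4 CCAAT matches, 1 TATAAA, 1 ATGCAAAT and 2 TGACG, and the H3f3a window held 1 CCAAT, 4 GGGCGG and 1 AAACACA. The H2az1 window held 2 CCAAT, 1 GGGCGG and 1 CACGTG, and that of H1f0 held none of the 8. Over all 32851 promoter windows of this length, 33.8% held CCAAT, 12.4% TATAAA, 32.7% GGGCGG, 1.6% ATGCAAAT, 6.25% AAACACA, 6.02% CACGTG, 17.8% TGACG and 1.26% TTTGGCG. Among the 9 variant genes with a window, CCAAT was in 5 and GGGCGG in 6, while TATAAA, ATGCAAAT and TGACG were in H3f3b alone and TTTGGCG in none. Among 56 windows of replication-dependent histone genes, 82.1% held CCAAT, 46.4% TATAAA, 41.1% TGACG and 19.6% ATGCAAAT. In the same 56 windows, 32.1% held GGGCGG and 10.7% AAACACA, and none held CACGTG or TTTGGCG. These are matches of letters and say nothing of binding.

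H2A.Z marks the nucleosomes that flank transcription start sites and is encoded by H2az1 and H2az2, whose proteins differ at a few residues. H2az1 had 65.4, 63.3 and 75.7 CPM at 96 h, against 78.2, 80.4 and 76.1 CPM at 0 h. The highest 96 h library came close to the lowest 0 h library without overlap, and the fall was small (log2 fold change -0.20 ± 0.07, edgeR adjusted p = 0.023). H2az2 had 13.4, 15.2 and 13.8 CPM at 96 h, against 18.2, 17.4 and 15.5 CPM at 0 h (-0.27 ± 0.10, adjusted p = 0.0387). Neither call was firm. That of H2az1 was lost when replicate 2 at 0 h (adjusted p = 0.0701) or replicate 1 (0.0681) or 2 (0.0994) at 96 h was left out, and with upper-quartile factors (log2 fold change -0.12, adjusted p = 0.15). That of H2az2 was lost when replicate 1 (adjusted p = 0.121) or 2 (0.0956) at 0 h or replicate 1 (0.12) or 3 (0.101) at 96 h was left out, and with upper-quartile factors (log2 fold change -0.18, adjusted p = 0.14), a filter at a mean of 1 CPM (0.0589) or the DESeq2 Wald test (0.0807).

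The balance within the H2A.Z pair overlapped between the groups. H2az1 supplied 82.9%, 80.6% and 84.6% of the counts of the pair at 96 h, against 81.1%, 82.2% and 83.1% at 0 h. The log2 ratio of H2az1 over H2az2 was 2.26 ± 0.20 at 96 h and 2.20 ± 0.10 at 0 h (SD, n = 3 each), a difference of 0.06 (exact two-sided permutation p = 0.7, also after adjustment over 3 ratios), which turned to -0.03 without 96 h replicate 3. The test at this number of libraries cannot show that the ratio was the same.

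H2AX is the variant that the kinases ATM, ATR and DNA-PK phosphorylate around DNA breaks, and its gene can make a stem-loop mRNA as well as a polyadenylated one. H2ax had 58.2, 52.6 and 55.4 CPM at 96 h, against 132, 123 and 123 CPM at 0 h. The groups lay far apart relative to their spread, and the level at 96 h was 44.0% of that at 0 h (log2 fold change -1.19 ± 0.06, edgeR adjusted p = 1.26e-09). Only 2.69% of the genes tested had a lower fold change.

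H2A.J, encoded by H2aj, differs from bulk H2A mainly at its C-terminal end. H2aj had 24.6, 25.7 and 24.9 CPM at 96 h, against 21.7, 23.7 and 25.2 CPM at 0 h, and the groups overlapped. Its log2 fold change was 0.09 (95% interval -0.08 to 0.26, edgeR adjusted p = 0.362), and -0.16 with scaling by library size only, where it did not pass either (adjusted p = 0.129). The interval ends above the fold change of each of the 8 genes called, though it overlaps the intervals of H2az1 (-0.35 to -0.05) and H2az2 (-0.48 to -0.05).

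MacroH2A carries a large globular macrodomain behind its histone part and is known for its presence on the inactive X chromosome and at silent genes. Macroh2a1 had 41.8, 44.3 and 48.5 CPM at 96 h, against 81.4, 82.7 and 86.1 CPM at 0 h. The groups did not overlap, and the level at 96 h was 53.9% of that at 0 h (log2 fold change -0.89 ± 0.06, edgeR adjusted p = 5.71e-08). Its splice forms are summed in the gene row and were not separated. Macroh2a2, the second macroH2A gene, had 1, 2 and 0 counts in the 96 h libraries and 0 in each 0 h library. All of these are at or below the 3 counts that a count of 0 allows (0.167 to 0.2 CPM at 96 h and 0.128 to 0.157 CPM at 0 h, for counting error only), so Macroh2a1 supplied nearly all macroH2A counts in both states.

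The linker variants fell, H1f0 by the most of the 10 genes. H1.0, its product, is known as the linker histone that accumulates in many cell types when they stop dividing and differentiate. H1f0 had 64.9, 67.1 and 70.3 CPM at 96 h, against 273, 258 and 273 CPM at 0 h. The level at 96 h was 25.2% of that at 0 h (log2 fold change -1.99 ± 0.05, edgeR adjusted p = 4.02e-12), and only 0.679% of genes tested had a lower fold change. H1f10 encodes H1.10 (also H1X), a linker histone distant in sequence from the others. H1f10 had 45.7, 43.6 and 43.8 CPM at 96 h, against 81.0, 80.4 and 80.8 CPM at 0 h, a level of 55.0% (-0.86 ± 0.05, adjusted p = 1.58e-08). Neither gene overlapped between the groups. The log2 ratio of H1f0 over H1f10 was 0.60 ± 0.09 at 96 h and 1.73 ± 0.04 at 0 h (SD, n = 3 each), a difference of -1.13 without overlap (exact permutation p = 0.1, the smallest possible, and 0.15 over 3 ratios). The ratio of Macroh2a1 over Macroh2a2 could not be formed from counts of 0.

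**Figure D3:**
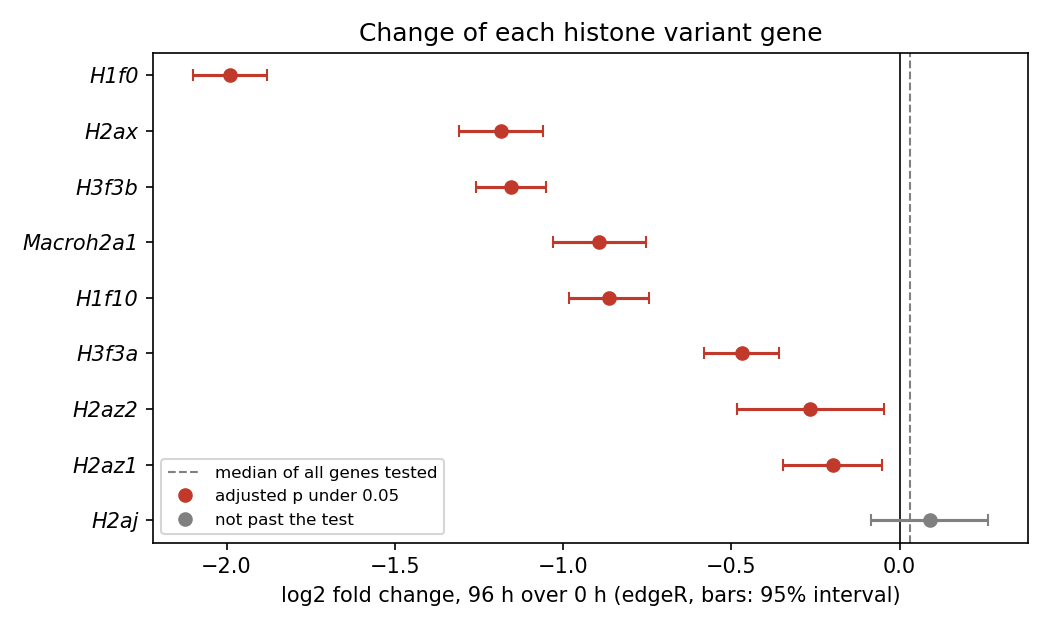
Log2 fold change at 96 h over 0 h of the 9 tested genes with 95% intervals (edgeR), red for an adjusted p under 0.05 and grey otherwise; the dashed line is the median of all genes tested (0.03). H1f0 stands at -1.99, H2ax and H3f3b at -1.19 and -1.16, and the interval of H2aj spans 0.

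Levels can be compared between genes per length of transcript. CPM per kb was computed with the length of the RefSeq-matched GENCODE transcripts, 940 bases for H2az1 and 2841 for H3f3a, and the order depends on those lengths. At 96 h the order was H3f3b (136 CPM per kb), H2az1 (72.5), H3f3a (67.3), H2ax (40.0), H1f10 (36.5), H1f0 (32.8), Macroh2a1 (22.6), H2aj (13.7) and H2az2 (8.68), with overlap between neighbours only for H2az1 and H3f3a. At 0 h it was H3f3b (302 CPM per kb), H1f0 (131), H3f3a (93.1), H2ax (91.0), H2az1 (83.3), H1f10 (66.3), Macroh2a1 (41.9), H2aj (12.9) and H2az2 (10.4), with overlap only between H3f3a and H2ax. H3f3b led in each state. H1f0 stood in place 6 at 96 h and in place 2 at 0 h.

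The mix of variant transcripts is given as a description, with no test. H1f0 made up 8.64% ± 0.15 of the CPM of the 10 genes at 96 h and 17.4% ± 0.73 at 0 h (SD, n = 3 each), and H3f3b 34.6% ± 0.46 at 96 h and 39.0% ± 0.60 at 0 h. The shares of H3f3a (24.5% ± 0.18 at 96 h and 17.1% ± 0.58 at 0 h), H2az1 (8.71% ± 0.46 at 96 h and 5.07% ± 0.09 at 0 h) and H2aj (3.21% ± 0.17 at 96 h and 1.53% ± 0.13 at 0 h) were larger at 96 h.

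The replication-dependent histone genes, which are measured because the RNA was depleted of ribosomal RNA and not selected for poly(A), are the nearest relatives. Of 65 tested, 64 fell (28.8% of all genes tested were lower) and none rose, with a median log2 fold change of -1.48. H1f1 (-3.31 ± 0.07) and H1f5 (-2.12 ± 0.05), linker histones of S phase, had the smallest adjusted p, and the other genes of that class, H1f2, H1f3 and H1f4, had -1.44, -1.82 and -1.63. Their copies are near-identical and reads may be split among them, so sums are given as well. Summed over the 65 genes they gave 3107 ± 136 CPM at 96 h and 9271 ± 400 CPM at 0 h (SD, n = 3 each), while the 10 variant genes gave 781 ± 35 CPM at 96 h and 1544 ± 24 CPM at 0 h.

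Summed over genes, variant transcripts took a larger share of histone counts at 96 h while their summed level was lower. This did not hold for H1f0 alone, whose level at 96 h was 25.2% of that at 0 h. The summed replication-dependent genes were at 33.5%. Over all histone genes counted, the variants' share was 19.2%, 19.3% and 21.8% at 96 h, against 13.9%, 15.0% and 14.0% at 0 h. In the H3 class H3f3a and H3f3b took 50.8%, 50.8% and 55.2% at 96 h, against 39.5%, 44.0% and 39.9% at 0 h. In the H2A class the variants took 17.2%, 17.4% and 19.5% at 96 h, against 11.3%, 12.0% and 11.8% at 0 h. In the H1 class H1f0 and H1f10 took 15.7%, 16.0% and 17.5% at 96 h, against 13.8%, 14.1% and 14.2% at 0 h, the smallest of these shifts. The replication-dependent H1 genes summed to 571 ± 30 CPM at 96 h and 2140 ± 79 CPM at 0 h (SD). H1f0 fell by about as much as these (67.4 CPM at 96 h, 268 CPM at 0 h). H1f10 fell by less (44.4 CPM at 96 h, 80.7 CPM at 0 h). The log2 ratio of variant over replication-dependent counts was higher at 96 h by 0.59 over all classes, 0.65 for H3, 0.72 for H2A and 0.26 for H1. None of the 4 ratios overlapped between the groups (exact permutation p = 0.1 each, the smallest possible, and 0.1 adjusted over 4). The table also has a row for H2af-ps2, which RefSeq annotates as a transcribed pseudogene and also lists as Hist1h2al. It held 414, 490 and 487 counts at 96 h, against 1341, 1582 and 1447 at 0 h. It is not counted above, and with it among the replication-dependent genes the difference was 0.72 for H2A and 0.59 over all classes. Whether reads were split between it and other H2A genes was not tested. The shares are of counts, which weigh long transcripts more, and are not shares of molecules.

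**Figure D4:**
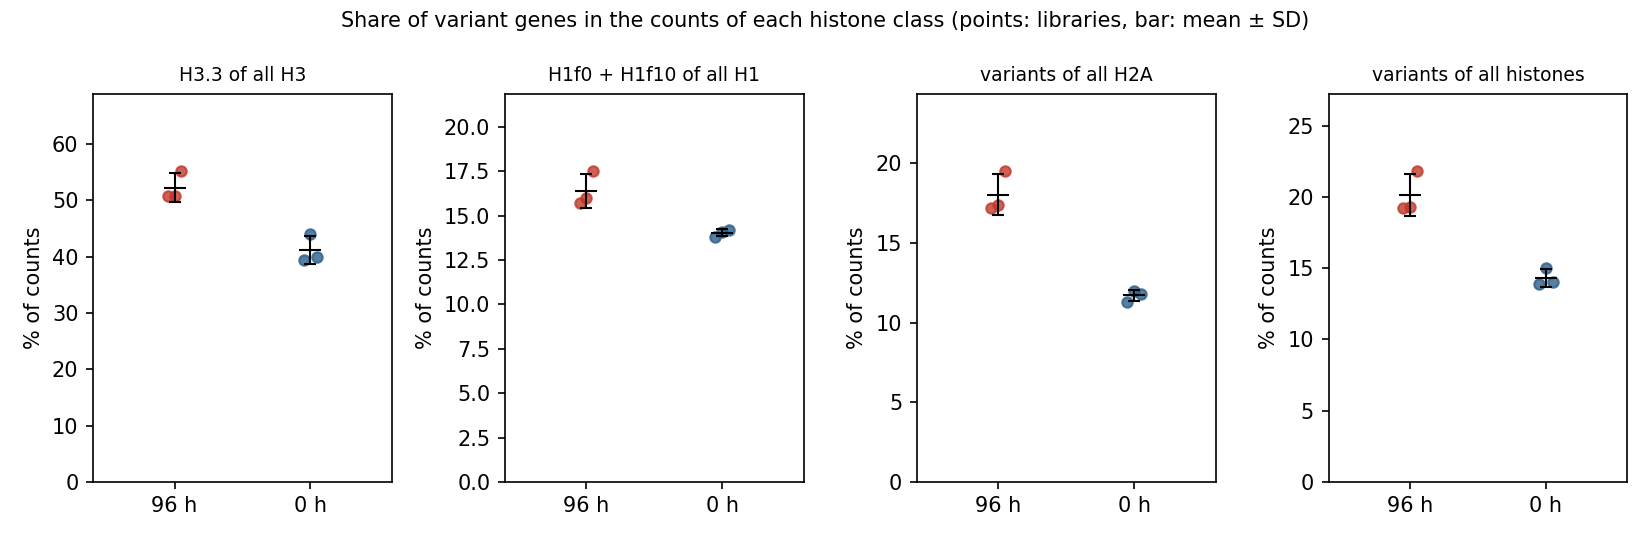
Share of variant genes in the counts of each histone class, in percent, in each library (96 h in red, 0 h in blue, mean and SD of 3 libraries; each axis starts at 0 and has its own range). The variants took 20.1% of all histone counts at 96 h and 14.3% at 0 h, and in no panel do the groups overlap.

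Of 7 genes for H3.3 deposition none rose and 2 fell, a share close to the 28.8% of all genes tested that were lower, so it is no result about these genes as a group. The 2 were Atrx (log2 fold change -0.28 ± 0.05), a chromatin remodeller, and Ubn2 (-0.28 ± 0.06), a partner of HIRA, and the median of the 7 was -0.12. Hira itself had 36.1 CPM at 96 h and 35.8 CPM at 0 h (0.01 ± 0.07, no call). All 7 were lower when scaled by library size only. Of 18 genes of the H2A.Z exchange machinery 2 rose and 8 fell, with a median of -0.15. Among all genes tested 28.7% were higher and 28.8% lower. Without 96 h replicate 3 the number that fell was 5, as it was when scaled by upper quartiles, and with library size only it was 13, with 0 higher. Anp32e, a chaperone that removes H2A.Z, fell (-0.78 ± 0.05), as did Srcap, the ATPase that inserts it (-0.60 ± 0.05). Trrap, a scaffold of the TIP60 complex, rose (0.23 ± 0.04, but -0.02 with no call under library size only). Mbtd1, another subunit, had 0.26 ± 0.09, a call lost with library size only (0.01), with no filter, with DESeq2, and when replicate 2 or 3 of the 0 h group, or replicate 1 or 3 of the 96 h group, was left out (adjusted p = 0.0534 to 0.101).

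Of 10 tested genes of H2AX signalling, 6 fell, with Baz1b (-0.75 ± 0.05), the kinase subunit that marks H2AX on a tyrosine, and Brca1 (-0.65 ± 0.05), and 3 rose, with the kinase Atr (0.60 ± 0.08) and Trp53bp1 (0.28 ± 0.06, and 0.03 without a call with library size only). Their median was -0.32. Beside these counts and those of the lists below, 28.8% of all genes tested were lower and 28.7% higher. The 3 that rose are close to the share of all genes, so they are no result about the list. With library size only 1 was higher and 7 lower. All 9 general histone chaperones and chaperones of H1 fell (median -0.65), with Set (-0.77 ± 0.04) and Supt16 (-0.81 ± 0.04), a subunit of FACT. Of 8 genes that deposit histones behind the replication fork 7 fell and none rose (median -0.75), with the clamp Pcna (-1.37 ± 0.05) and the helicase subunit Mcm2 (-0.87 ± 0.04). Of 7 genes that process histone mRNA ends 4 fell and none rose (median -0.29), with Slbp (-1.12 ± 0.07), which binds the stem-loop, and the exonuclease Eri1 (-0.75 ± 0.06). Replication genes fell beside the variant genes, and their part in the fall of the variants was not tested.

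**Figure D5:**
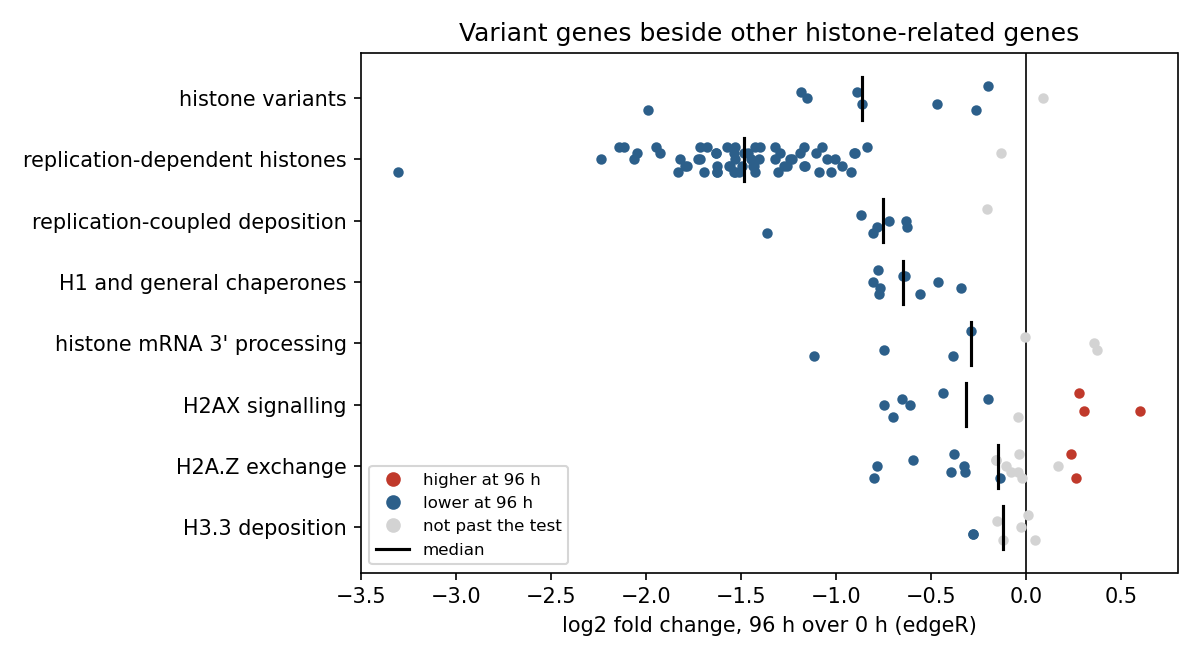
Log2 fold change at 96 h over 0 h of the tested variant genes and of 7 other groups of histone-related genes (each point a gene, red higher, blue lower, grey not past the test; black line the median). The median is -0.86 for the variants, -1.48 for replication-dependent histones and -0.12 for H3.3 deposition genes.

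Of 15 further variant genes in the table, 13 did not pass the filter on low counts. They are mostly known from germ cells, 6 were at 0 in all libraries, and none of the 13 had more than 7 counts at 96 h or 17 counts at 0 h in sum. Cenpa, the H3 variant of centromeres, was higher at 96 h (19.3 CPM against 15.3 CPM at 0 h, log2 fold change 0.33 ± 0.12, edgeR adjusted p = 0.0267). That call was lost with library size only (0.08), with DESeq2 (adjusted p = 0.0917), and when replicate 1 (0.054) or 2 (0.15) at 0 h or replicate 1 at 96 h (0.186) was left out. H3f5 had 0.612 CPM at 96 h and 1.06 CPM at 0 h and did not pass.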

How the data were processed

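Total RNA of 6 libraries was depleted of ribosomal RNA and sequenced in paired ends after preparation with a stranded kit, per the labels' protocols. The authors deposited a table of estimated counts (expected counts, not normalised) for 40413 genes. FastQC 0.12.1, Salmon 1.10.1 and DESeq2 1.52.0 with build mm39 are named in the submitters' processing notes. Their roles, the annotation, any use of strand and the step from transcripts to genes are not stated there.

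Counts were rounded. In edgeR 4.0.16 (R 4.3.3), filterByExpr left 13705 genes, libraries were scaled with TMM, and 96 h was compared with 0 h by the quasi-likelihood F test, tested first on simulated data. Each SE is the absolute log2 fold change over the root of F. Alternatives were other scalings, filters, DESeq2 1.42.0, limma-voom (limma 3.58.1), a replicate block and leaving out each library. Ratios were compared by exact permutation over 20 groupings. Every library pair within a group differed by more than sampling noise (chi-square per degree of freedom 6.32 to 12.9).

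The 10 genes and the lists of related genes were chosen with earlier results of these data known. Besides the 10, the text names the 2 higher and 2 lower genes of smallest adjusted p in each list. Hira, H1f2, H1f3, H1f4, H3f5, H3f3c, H2af-ps2, Gm26917 and some cell markers fall outside this rule and were named after their values were seen. Some marker genes are not reported here. Transcript lengths came from GENCODE M21 (GRCm38) through RefSeq accessions.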

Additional observations from a re-analysis of the deposited data

How the results depend on the processing

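Of the variant genes, 6 (H1f0, H1f10, H2ax, H3f3a, H3f3b and Macroh2a1) stayed lower and past the test under all 15 alternatives, with log2 fold changes of -2.24 to -1.91 for H1f0, -1.41 to -1.08 for H3f3b and -0.72 to -0.39 for H3f3a. H2az1 was called lower in 11 of 15 and H2az2 in 8 of 15. H2aj was called in none, and its log2 fold change turned to -0.16 with library size only. The number of variant genes called lower was 8 with TMM, with DESeq2 size factors and when scaled by library size only, and 6 when scaled by upper quartiles. It was 7 with the DESeq2 Wald test, 7 with a filter at a mean of 1 CPM, and 6 to 8 when a library was left out. No variant gene was called higher in any. With library size only, 2409 genes were higher in place of 3927, and Trrap turned to -0.0183. The difference in the log2 ratio of H2az1 over H2az2 ran from -0.0347 to 0.166 when a library was left out, and the other ratios kept their direction. With the replicate block, 8 variant genes were lower, and 3854 genes were higher and 3858 lower. Libraries of the same number did not deviate together (correlations -0.102, 0.00451 and 0.0302), and those of unlike number gave -0.119 to 0.13. With 3 libraries a group this cannot show whether the numbers pair them. The causes of these shifts were not tested. Shares of histone counts were compared after the data were seen. With 3 libraries a group, exact tests cannot fall below 0.1.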
